A study of Mus musculus with 36 samples.

Results

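The interleukin-12 family comprises secreted cytokines that are each built from a helical subunit paired with a receptor-like subunit. Its subunits are encoded by 5 genes, the helical subunits Il12a (p35), Il23a (p19) and Il27 (p28) and the receptor-like Il12b (p40) and Ebi3. They were chosen by symbol and not by a measured value, although earlier results of these data were known, and all 5 were found among the 53299 genes of the table. IL-12 pairs the products of Il12a and Il12b, IL-23 those of Il23a and Il12b, IL-27 those of Il27 and Ebi3, and IL-35 those of Il12a and Ebi3. In dendritic cells, sensing of microbial products is the classical trigger of Il12b transcription, and IL-12 then drives T cells and natural killer cells towards interferon-gamma production.

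Messenger RNA was read from mouse cDC1 and cDC2, the conventional dendritic cell types that present antigen mainly to CD8+ and to CD4+ T cells, both labelled as derived from bone marrow with FLT3L. The groups used were LPS_PGPC, LPS, PGPC and Nothing in each cell type, where LPS is a bacterial product sensed by TLR4 and PGPC is an oxidized phospholipid. The sources used here do not give the strain, age or sex of the mice, the doses and times of treatment, or any sorting of the cells before RNA extraction. Each group holds 3 libraries called biological replicates (1 to 3 for cDC1, 4 to 6 for cDC2), except cDC2 PGPC with 2, since its replicate 6 holds only 3805 counts and was left out with the 12 libraries given alum. Levels are CPM, counts scaled to library size with TMM factors, with standard deviations over libraries, and log2 fold changes carry approximate standard errors. Each is the size of the log2 fold change divided by the square root of the F statistic of its test, and not a directly fitted error. A gene was called at an adjusted p below 0.05 in edgeR's quasi-likelihood test with Benjamini-Hochberg adjustment over the 12463 genes that passed the filter on low counts, and every adjusted p of a gene below is from that test unless another tool is named.

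The 23 libraries held from 243870 to 16601064 counts and 9687 to 15608 detected genes. The summed level of 9 cDC1 markers ran from 161 to 201 CPM in untreated cDC2, against 1092 to 1813 CPM in untreated cDC1, although Xcr1, a defining cDC1 receptor, averaged only 0.177 CPM in untreated cDC1. Irf8 alone held 560.9 to 1325 CPM in untreated cDC1 and 61.35 to 104.8 CPM in untreated cDC2, so this sum rests largely on Irf8. Summed over 8 cDC2 markers, untreated cDC2 held 947 to 1439 CPM and untreated cDC1 318 to 590 CPM, but most of that list went against the cDC2 label. Sirpa (1098 ± 228 CPM in untreated cDC2 and 358 ± 142 CPM in untreated cDC1) and Itgam (140 ± 28.3 and 42.9 ± 11.6 CPM in the same order) carried the sum. The other 6 averaged lower in untreated cDC2 than in untreated cDC1, with Irf4 at 2.61 and 24.9 CPM, Klf4 at 1.83 and 5.97, Clec10a at 2.29 and 5.93, Cd209a at 0.175 and 2.08, Mgl2 at 0.265 and 1.48, and Clec4a4 at 0.0861 and 0.101, and Cd209a was at 0 in cDC2 with LPS, with LPS_PGPC and with PGPC. Flt3, the receptor of FLT3L and a marker of all conventional dendritic cells, averaged 12.5 CPM in untreated cDC2 and 352 CPM in untreated cDC1, and the 9 monocyte or macrophage markers, none at 0, summed to 2226 to 3132 CPM in untreated cDC2 and 691 to 1076 CPM in untreated cDC1. The groups are called cDC2 and cDC1 below by their labels. Rows of ribosomal RNA took 21.9% ± 6.86 of counts in cDC1 LPS and 53.2% ± 16.5 in cDC1 Nothing (SD, n = 3 each), so the share of counts left for other genes differed between these groups. The same rows took 56.5% ± 6.25 of counts in cDC2 PGPC (n = 2) and 32.5% ± 4.45 in cDC2 Nothing (n = 3).

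In brief, Il12b and Ebi3 were the members with appreciable RNA. Il12b was nearly absent without LPS or PGPC, was called higher with LPS in both cell types and with PGPC in cDC1, and stood lower in cDC2 than in cDC1 under LPS. Ebi3 was present in every library and was called higher with LPS in both cell types, and in cDC1 LPS_PGPC it was called lower than in cDC1 LPS. Il12a gave 252 counts and Il27 55 counts over the 23 libraries, and Il23a gave 2. Only Il12a, Il12b and Ebi3 passed the filter on low counts, so 3 of the 5 members were tested. In bulk RNA, fewer cells of a type and less RNA per cell cannot be told apart.

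The promoters of the genes that carry these results are shown because Rel and other NF-kB proteins, which bind kB motifs, are known activators of both. The windows cover the 250 bases before the start of each gene as RefSeq gives it on GRCm38.p6, plus strand, chr11:44399813-44400062 for Il12b and chr17:55952373-55952622 for Ebi3, with matches to a kB motif in capitals.
Il12b: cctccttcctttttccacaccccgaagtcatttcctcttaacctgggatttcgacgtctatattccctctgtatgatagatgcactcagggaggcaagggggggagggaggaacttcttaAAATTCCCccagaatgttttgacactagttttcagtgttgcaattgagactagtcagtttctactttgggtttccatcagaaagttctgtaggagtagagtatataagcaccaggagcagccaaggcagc
Ebi3: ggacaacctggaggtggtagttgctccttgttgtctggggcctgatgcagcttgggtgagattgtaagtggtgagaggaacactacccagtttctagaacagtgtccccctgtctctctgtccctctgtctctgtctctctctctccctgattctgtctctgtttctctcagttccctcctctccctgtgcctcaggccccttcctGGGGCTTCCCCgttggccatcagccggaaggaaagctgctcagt
The capitals of Il12b, at position -130 from the start, match a short kB motif, GGGNNTTT, on the reverse strand. Those of Ebi3 hold 2 overlapping matches to the kB outline (GGG, any 5 bases, CC), at positions -44 and -43. Of 32851 promoter windows of the same length (250 bases before to 50 after a start), searched on both strands, 15.1% held GGGNNTTT and 50.8% held the kB outline, so a match is common, and GGGNNTTT was added to the search after the Il12b window had been viewed. The Il12b window held no match to the kB outline. Il12a, a scarce member, held matches to it at positions -113 and 18, so such matches were not limited to the genes shown. The motifs GAAA, any 2 bases, GAAA (interferon response), TTGCNNAA (C/EBP) and TGANTCA (AP-1) had no match in the windows of Il12a, Il12b and Ebi3, and 3.44%, 10.8% and 7.81% of all windows held them. Such fixed patterns miss sites with other letters, so no match does not show that a site is absent. Of the 5 members, 3 had an entry in the promoter table, and Il23a and Il27 are named only.

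By position on GRCm38 (GENCODE annotation), Il12b lies on chr11:44400063-44414033, plus strand, and Ebi3 on chr17:55952640-55957022, plus strand. Il12a lies on chr3:68690644-68698547, plus strand, Il23a on chr10:128296139-128298752, minus strand, and Il27 on chr7:126589010-126594941, minus strand. Counts were summed over whole genes without strand, and Ebi3 overlaps Gm16712 and Il27 overlaps Apobr, so reads of these pairs cannot be fully told apart.

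**Figure D1:**
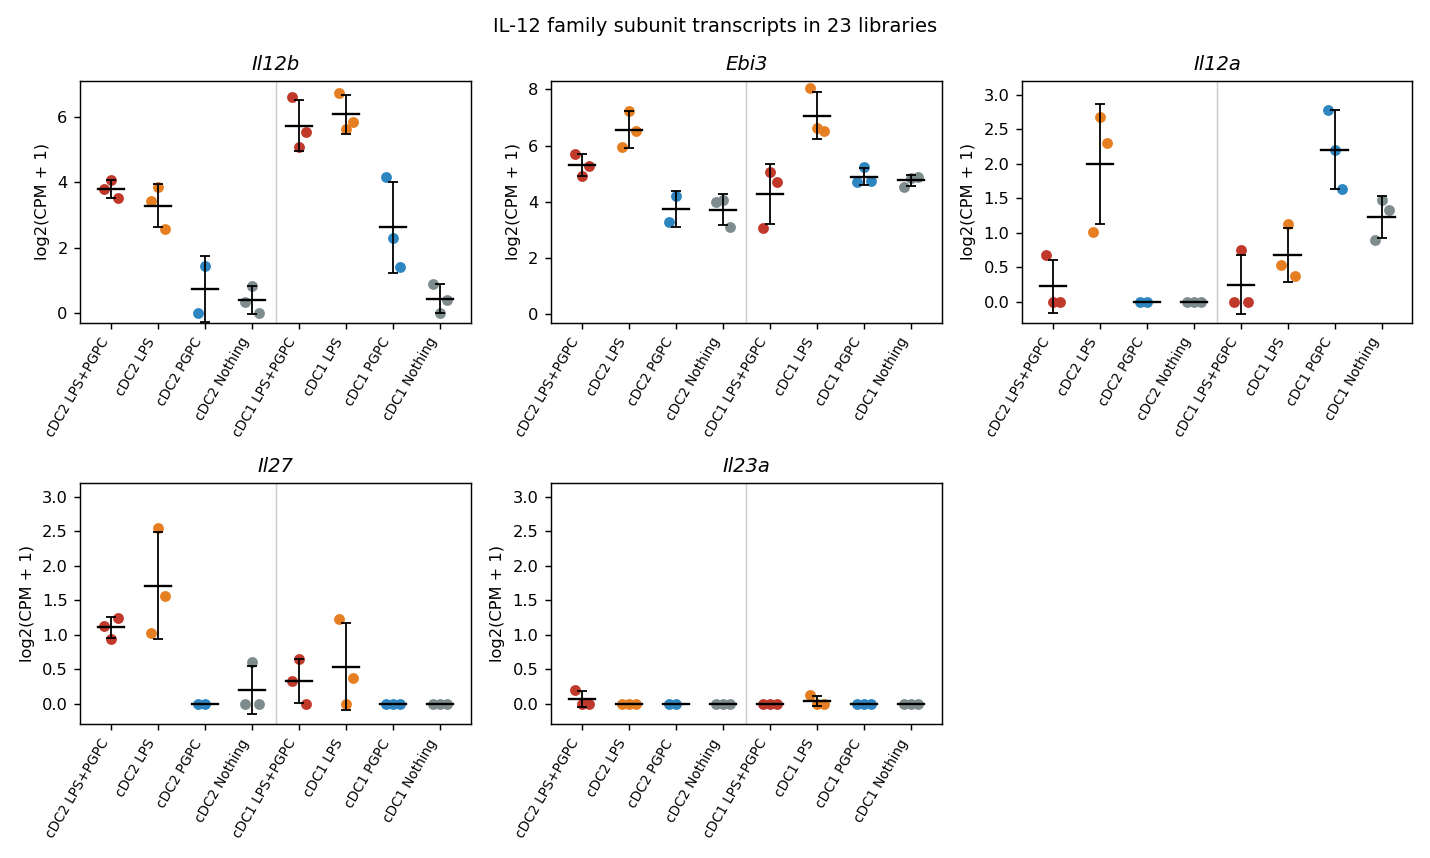
Level of each IL-12 family subunit transcript as log2(CPM + 1) in 23 libraries, 1 point per library, with the mean and SD of each of the 8 groups (cDC2 at the left of each panel, cDC1 at the right; LPS+PGPC, LPS, PGPC and Nothing in each). Il12b stands high in the 6 cDC1 libraries with LPS, Ebi3 is present in all 23 libraries, and Il12a, Il27 and Il23a stay at or below 5.89 CPM.

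The helical subunits were scarce. Il12a, whose product pairs with p40 to make IL-12, had 5.89, 3.58 and 2.10 CPM in cDC1 PGPC, against 0.855, 1.77 and 1.51 CPM in cDC1 Nothing. The PGPC libraries all lay above the untreated ones, but the difference was not called (log2 fold change 1.41 ± 1.32, adjusted p = 0.667). Among LPS libraries, Il12a had 1.02, 5.39 and 3.91 CPM in cDC2 LPS and 0.446, 1.18 and 0.294 CPM in cDC1 LPS. The ranges of the cell types overlapped under LPS, and Il12a was not called (log2 fold change 2.52 ± 1.47, adjusted p = 0.347), but limma voom called it higher in cDC2 (2.40, adjusted p = 0.0369). In cDC2 Nothing there was no count of Il12a, so cDC2 LPS, with 16 counts, was at least 8.69-fold higher against a floor of 3 counts over the untreated group (adjusted p = 0.0638, not called by edgeR or DESeq2, but called higher by limma voom). With LPS_PGPC a single library of each cell type held Il12a, cDC2 replicate 4 at 0.595 CPM and cDC1 replicate 2 at 0.682 CPM, and the other 4 had no count.
The 3 cDC2 LPS_PGPC libraries lay wholly below the 3 cDC2 LPS libraries in Il12a (log2 fold change -3.76 ± 1.52, adjusted p = 0.472, not called). In cDC1, LPS_PGPC stood below PGPC without a call (-3.97 ± 1.45 on the log2 scale, adjusted p = 0.0657), but without LPS_PGPC replicate 2, the library that holds all 6 counts of its group, the adjusted p was 0.0161, and DESeq2 and limma voom also called it lower. Without that library Il12a was also called lower in cDC1 LPS_PGPC than in cDC1 Nothing (adjusted p = 0.0464, against 0.268 with it). Leaving it out left the LPS_PGPC group with no Il12a count, so the calls without it follow from that removal and add no support for a decrease. In the order of group means, each neighbouring pair of groups overlapped in Il12a, from 3.86 ± 1.91 CPM in cDC1 PGPC down to no count in cDC2 PGPC (n = 2) and cDC2 Nothing.

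Il27, the helical subunit of IL-27, was found in 10 of the 12 libraries given LPS, with or without PGPC, and in 1 of the 11 others. Its level was 1.02, 4.85 and 1.96 CPM in cDC2 LPS (2, 9 and 2 counts) and 1.19, 0.916 and 1.37 CPM in cDC2 LPS_PGPC, while cDC2 Nothing held 2 counts in a single library. Summed counts per scaled library size gave a ratio of 10.6 for cDC2 LPS over cDC2 Nothing, with a counting interval of 2.4 to 96.7, and 5.57 without untreated replicate 4 or 5.29 without LPS replicate 5. In cDC1 LPS 15 of the 16 counts came from replicate 1, and with none in cDC1 Nothing the level was at least 5.13-fold higher. When the filter on low counts was left out, edgeR tested Il27 and called neither difference (adjusted p = 0.723 in cDC2 and 0.225 in cDC1). No Il27 count was seen in cDC1 PGPC, where 3 counts over the group would be 0.0681 CPM. Il23a, the helical subunit of IL-23, gave 1 count in cDC1 LPS replicate 1 and 1 count in cDC2 LPS_PGPC replicate 4. At this depth no group could be set apart from another in Il23a.

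Il12b, the receptor-like subunit shared by IL-12 and IL-23, had 107, 48.4 and 57.1 CPM in cDC1 LPS, against 0.855, 0 and 0.303 CPM in cDC1 Nothing. The groups were far apart, with 1473 counts in LPS libraries and 3 in untreated ones. Summed counts per scaled library size gave a ratio of 473, with a 95% counting interval of 161 to 2290 that covers counting error only (adjusted p = 5.83e-06). It was 234 without untreated replicate 2, 820 without untreated replicate 3 and 283 without LPS replicate 1, and Il12b was called under all 15 alternatives tried. Of the 3 members tested, 2 were called higher in this comparison and none lower, beside 17.9% of all tested genes called in either direction and 8.58% called higher.

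Ebi3, the receptor-like subunit of IL-27 and IL-35, was the other one. It had 264, 98.6 and 90.7 CPM in cDC1 LPS and 22.2, 28.1 and 28.8 CPM in cDC1 Nothing, without overlap (log2 fold change 2.51 ± 0.51, adjusted p = 0.00108). Without LPS replicate 1, the library with the highest value, the fold change was 1.83 on the log2 scale and still called, but with all 36 libraries in the fit, the sparse alum ones included, it was not (adjusted p = 0.412). Il12a was not called (log2 fold change -1.28 ± 1.43, adjusted p = 0.578), and its LPS and untreated libraries overlapped. Per kilobase of exon, which allows genes to be compared, cDC1 LPS held 131 ± 84.8 CPM of Ebi3, 35.99 ± 16.03 of Il12b, 0.533 ± 0.689 of Il27 and 0.377 ± 0.279 of Il12a (SD, n = 3).

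In cDC2 with LPS, Il12b and Ebi3 were called higher, 2 of the 3 members tested. Il12b had 9.73, 13.5 and 4.89 CPM in cDC2 LPS, against 0.268, 0.775 and 0 CPM in cDC2 Nothing, with no overlap (log2 fold change 4.20 ± 1.03, adjusted p = 0.00825). The value of 0 is from untreated replicate 6, which holds only 243870 counts in all. There 3 counts would be 11.2 CPM, above the 9.73 and 4.89 CPM of cDC2 LPS, so that 0 cannot show a separation. The untreated group rests on 4 counts, and the call was lost without untreated replicate 4 (log2 fold change 3.71, adjusted p = 0.0976), while without untreated replicate 5 the log2 fold change was 5.17. Ebi3 had 60.4, 150.3 and 91.0 CPM in cDC2 LPS and 15.003, 15.8 and 7.48 CPM in cDC2 Nothing, also without overlap (log2 fold change 2.85 ± 0.54, adjusted p = 0.000908). The 7.48 CPM rests on 2 counts in untreated replicate 6. With all 36 libraries in the fit Ebi3 was not called (adjusted p = 0.525). In this comparison 8.52% of tested genes were called. Of the 6 markers listed for plasmacytoid dendritic cells, which summed to 183 to 505 CPM in cDC2 LPS and 18.7 to 59.7 CPM in cDC2 Nothing, nearly all of the difference was Bst2 (329 ± 158 CPM with LPS and 29.4 ± 24.4 CPM without). Siglech averaged 0 CPM with LPS and 0.797 CPM without, Tcf4 12.3 and 9.73 CPM, and Ccr9 0.709 and 0.622 CPM, while Ly6d and Klk1 were at 0 in both groups. The 9 monocyte or macrophage markers, none at 0, summed to 1423 to 3930 CPM with LPS and 2226 to 3132 CPM without. Their part in the result was not tested.

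With PGPC alone 1 of the 3 tested members was called higher in cDC1 and none in cDC2. Il12b had 16.8, 3.91 and 1.66 CPM in cDC1 PGPC, all above the 0.855, 0 and 0.303 CPM of cDC1 Nothing. Replicate 1 held 425 of the 463 counts of the PGPC group and stood well above its other libraries. The ratio of summed counts was 54.9 (counting interval 18.7 to 267, adjusted p = 0.00719), but 10.6 without PGPC replicate 1 (adjusted p = 0.0428), 95.4 without untreated replicate 3, and 27.2 without untreated replicate 2, where the call was lost (adjusted p = 0.054). It was also lost with limma voom (log2 fold change 3.23, adjusted p = 0.272). Only 2.08% of tested genes were called between these groups, and 0.578% were called higher. Ebi3 had 24.9, 36.8 and 26.0 CPM in cDC1 PGPC, overlapping with cDC1 Nothing (log2 fold change 0.13 ± 0.48, adjusted p = 0.944).
Markers of other cells moved with PGPC in cDC1. The 5 granulocyte markers summed to 129 to 793 CPM in cDC1 PGPC and 17.1 to 94.0 CPM in cDC1 Nothing, with Elane at 0 in both groups and Ly6g at 0 without PGPC. The 5 mast cell or basophil markers summed to 24.8 to 38.8 CPM with PGPC and 1.27 to 2.88 CPM without, where Mcpt8, Fcer1a and Ms4a2 were at 0. The 9 monocyte or macrophage markers, none at 0, summed to 1215 to 1719 CPM with PGPC and 691 to 1076 CPM without. Whether they have a part in the Il12b value was not tested. In cDC2, Il12b gave 1 count in the 2 PGPC libraries and 4 counts in the 3 untreated ones, and Ebi3 had 8.77 and 17.2 CPM in cDC2 PGPC, overlapping with the 7.48 to 15.8 CPM of cDC2 Nothing (log2 fold change -0.20 ± 0.64, adjusted p = 1). There edgeR called 0 of the 3 members, none had an unadjusted p under 0.05, limma voom called 0, DESeq2 gave no adjusted p for them, and 0.016% of all tested genes were called. The summed scaled library size of cDC2 PGPC was 2405805, the smallest of the 8 groups, so a lack of calls there does not show a lack of change.

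LPS_PGPC was next set against LPS, groups that by their labels differ in the addition of PGPC. These comparisons share their LPS libraries with those of LPS against Nothing. In cDC1, Ebi3 was called lower and Il12b was not called. Il12b had 96.3, 33.1 and 45.1 CPM in cDC1 LPS_PGPC and 107, 48.4 and 57.1 CPM in cDC1 LPS, with overlapping ranges (log2 fold change -0.29 ± 0.64, adjusted p = 0.88). Ebi3 had 7.45, 32.4 and 24.7 CPM in cDC1 LPS_PGPC, all below the 264, 98.6 and 90.7 CPM of cDC1 LPS, and was called lower (log2 fold change -2.81 ± 0.51, adjusted p = 0.00412). It was the 1 member called in a comparison where 1.93% of tested genes were called in either direction and 0.546% were called lower. The call rests on LPS replicate 1. Without it the log2 fold change was -2.13 with an adjusted p of 0.0501, although the groups remained without overlap. With all 36 libraries in the fit the adjusted p was 0.754.
Against untreated cells, Ebi3 in cDC1 LPS_PGPC had overlapping ranges and no call (log2 fold change -0.30 ± 0.48, adjusted p = 0.761). Il12b there gave 1523 counts, against 3 in cDC1 Nothing, a ratio of 292 with a counting interval of 99.7 to 1420 (adjusted p = 1.09e-05), which was 145 without untreated replicate 2 and 507 without untreated replicate 3. It was the 1 of 3 members called in a comparison with 11.9% of tested genes called. Set against PGPC alone, cDC1 LPS_PGPC was higher in Il12b by 2.92 ± 0.69 on the log2 scale (adjusted p = 0.0049), or by 4.47 without PGPC replicate 1, with 16.4% of tested genes called. Markers of other cells differed between these groups without overlap. The granulocyte markers summed to 1.03 to 51.7 CPM in cDC1 LPS_PGPC (Elane and Mpo at 0) and 129 to 793 CPM in cDC1 PGPC (Elane at 0), and those of mast cells or basophils to 0.796 to 2.90 CPM in cDC1 LPS_PGPC (Mcpt8, Fcer1a and Ms4a2 at 0) and 24.8 to 38.8 CPM in cDC1 PGPC. The monocyte or macrophage markers summed to 233 to 462 CPM in cDC1 LPS_PGPC and 1215 to 1719 CPM in cDC1 PGPC, and the part of these markers in the Il12b value was not tested.

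**Figure D2:**
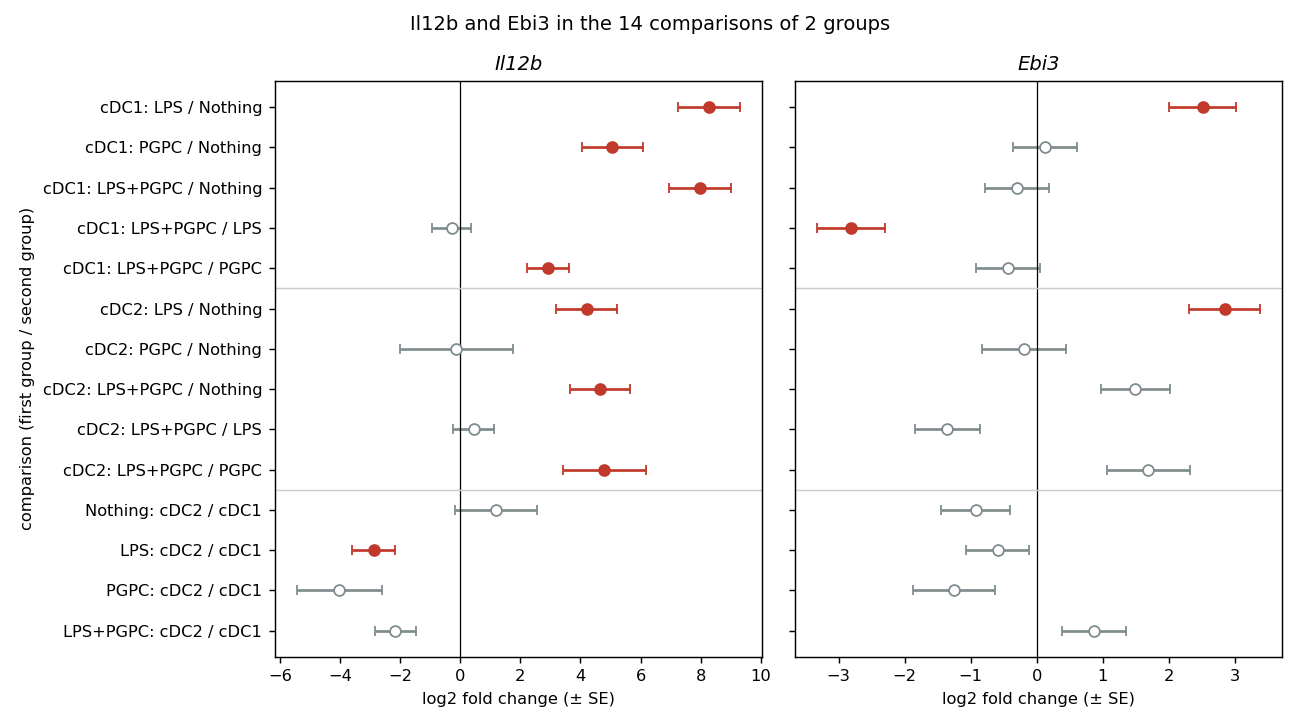
Log2 fold change with its approximate standard error (from the F statistic) for Il12b and Ebi3 in 14 comparisons of 2 groups (first group over second group), filled red where called at an adjusted p below 0.05 and open grey where not. Il12b is called in 8 comparisons, and Ebi3 is called higher with LPS in both cell types and lower in cDC1 LPS_PGPC than in cDC1 LPS.

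In cDC2 the same comparison gave values in the same directions for Ebi3 but no call. Ebi3 had 51.0, 29.3 and 37.6 CPM in cDC2 LPS_PGPC, all below the 60.4, 150.3 and 91.0 CPM of cDC2 LPS (log2 fold change -1.35 ± 0.49, adjusted p = 0.356). Il12b had 12.8, 15.9 and 10.5 CPM in cDC2 LPS_PGPC, overlapping with 9.73, 13.5 and 4.89 CPM in cDC2 LPS (log2 fold change 0.44 ± 0.69, adjusted p = 0.98). edgeR called 0 of 3 members, with 2 at an unadjusted p under 0.05, limma voom called Ebi3 and Il12a lower, and 0.385% of all tested genes were called. DESeq2 called 0 of the 2 members that it gave an adjusted p. The test of whether the Ebi3 difference was the same in the cell types gave 1.46 ± 0.68 (cDC2 change minus cDC1 change on the log2 scale, adjusted p = 0.606), so no difference between the cell types was shown, and 0.00802% of tested genes were called in that test.
Against cDC2 Nothing, Il12b was called higher in cDC2 LPS_PGPC (log2 fold change 4.64 ± 1.00, adjusted p = 0.00359), the 1 member called where 7.62% of tested genes were, and the call was lost without untreated replicate 4 (4.16, adjusted p = 0.0574). Without untreated replicate 5 the log2 fold change was 5.61. Ebi3 in cDC2 LPS_PGPC lay above every untreated library without a call (log2 fold change 1.49 ± 0.52, adjusted p = 0.0853). Against cDC2 PGPC, Il12b had 184 counts to 1, a ratio of 30.8 with a counting interval of 5.45 to 1220 (adjusted p = 0.0354, with 6.64% of tested genes called). That call was lost without either PGPC library or without LPS_PGPC replicate 4 or 5, with adjusted p-values of 0.0523 to 0.461, or with all 36 libraries in the fit (0.119), and the ratio was 7.43 without PGPC replicate 4.

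Within a library, the balance of the receptor-like subunits does not depend on scaling, and it was looked at after the values were seen, so it carries no test. Counts of Il12b over Ebi3 were 12.9, 1.02 and 1.83 in cDC1 LPS_PGPC, against 0.405, 0.491 and 0.63 in cDC1 LPS. In cDC2 they were 0.251, 0.542 and 0.279 with LPS_PGPC and 0.161, 0.0896 and 0.0538 with LPS. In both cell types every LPS_PGPC library stood above every LPS library, and only in cDC1 LPS_PGPC did Il12b counts exceed those of Ebi3 in all libraries. These counts are not scaled to exon length, which is 1967 bases for Il12b and 1154 for Ebi3. A ratio over 1 therefore does not show more transcripts of Il12b than of Ebi3. The ratio of Il12b to Il12a counts, taken as log2 with 0.5 added to each, was 6.61 ± 1.41 in cDC1 LPS and -2.31 ± 2.44 in cDC1 Nothing (SD, n = 3 each), a difference of 8.92 (two-sided exact permutation p = 0.1, the smallest that 3 against 3 libraries allow, and 0.171 adjusted over 12 comparisons). In cDC2 LPS the same ratio was 1.51 ± 1.35, so that cDC2 LPS differed from cDC1 LPS by -5.10 (exact permutation p = 0.1, adjusted 0.171). Ebi3 over Il12a was 2.99 ± 0.81 in cDC1 PGPC and 4.09 ± 0.13 in cDC1 Nothing, a difference of -1.09 (exact permutation p = 0.1, adjusted 0.171).

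**Figure D3:**
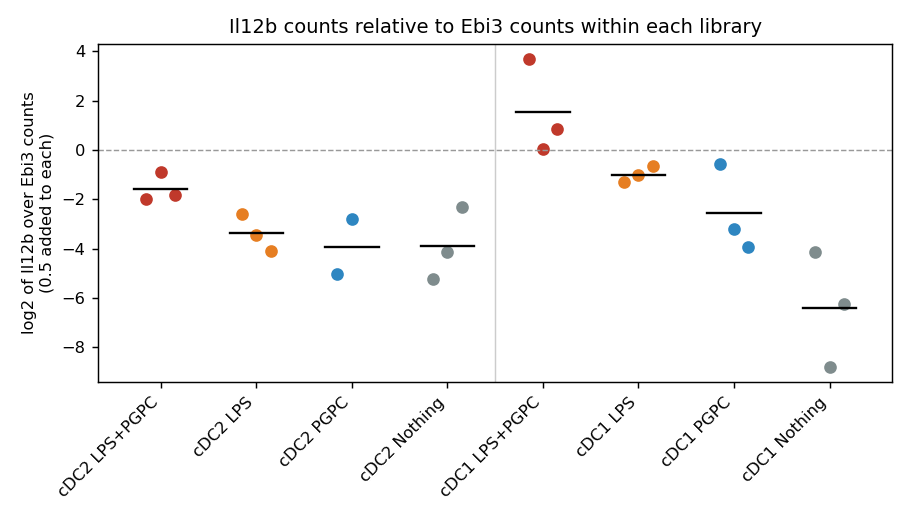
Log2 ratio of Il12b counts over Ebi3 counts (0.5 added to each) in each of 23 libraries, with group means as bars, cDC2 at the left and cDC1 at the right. All 3 cDC1 LPS+PGPC libraries lie above 0, and the LPS+PGPC libraries lie above the LPS libraries in both cell types.

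Between the cell types, cDC2 against cDC1, Il12b was called lower under LPS, with 9.73, 13.5 and 4.89 CPM in cDC2 LPS and 107, 48.4 and 57.1 CPM in cDC1 LPS (log2 fold change -2.89 ± 0.72, adjusted p = 0.0114). The libraries of the cell types did not overlap, and 7.8% of tested genes were called. The 9 monocyte or macrophage markers also stood apart, at 1423 to 3930 CPM in cDC2 LPS and 407 to 957 CPM in cDC1 LPS, and Flt3 averaged 56.7 ± 20.5 CPM in cDC2 LPS and 109 ± 3.83 CPM in cDC1 LPS. Their part in the result was not tested. The call was lost without cDC1 LPS replicate 1 (-2.46, adjusted p = 0.0763) or without cDC2 LPS replicate 6 (-2.51, adjusted p = 0.0795), and with all 36 libraries in the fit (adjusted p = 0.0664). Under LPS_PGPC the log2 fold change of Il12b was -2.16 ± 0.68 (adjusted p = 0.0525), again with no overlap and with 7.14% of tested genes called but 0 of the 3 members. One member had an unadjusted p under 0.05 there, and DESeq2 and limma voom each called Il12b lower. Whether the LPS change of Il12b itself differed was not shown, at -4.07 ± 1.63 for cDC2 change minus cDC1 change (adjusted p = 0.253), a value that rests on 4 and 3 untreated counts, with 1.33% of tested genes called. For LPS_PGPC against Nothing, where 0.305% of tested genes were called, the cell type difference in Ebi3 was 1.79 ± 0.71 (adjusted p = 0.35). In these 3 tests of cell type differences edgeR called 0 of 3 members, with 2, 3 and 1 at an unadjusted p under 0.05 for LPS against Nothing, LPS_PGPC against Nothing and LPS_PGPC against LPS. DESeq2 gave an adjusted p for only 2 members in each and called 0, and limma voom called 1 for LPS against Nothing and 0 in the others.
Ebi3 did not pass the test between cell types under any treatment. Its log2 fold change of cDC2 over cDC1 was -0.92 ± 0.52 untreated (adjusted p = 0.275), -0.59 under LPS (adjusted p = 0.53), 0.87 ± 0.48 under LPS_PGPC (adjusted p = 0.325) and -1.25 ± 0.62 under PGPC (adjusted p = 0.197). The libraries of the cell types did not overlap in untreated cells or under PGPC. In untreated cells Il12a was at least 4.18-fold lower in cDC2, which had no count, than in cDC1 with 25 (adjusted p = 0.115, not called). None of the 3 members was called between untreated cell types by edgeR or limma voom, with 1 at an unadjusted p under 0.05 in edgeR and 10.2% of tested genes called. DESeq2 gave an adjusted p for only 2 members there and called 0. With PGPC, edgeR called 0 of 3, with 2 at an unadjusted p under 0.05 and 12.1% of tested genes called, DESeq2 called Il12b lower in cDC2, and limma voom called 0. There Il12b had 1 count in cDC2 PGPC and 463 in cDC1 PGPC (ratio 0.0395, counting interval 0.000999 to 0.221, adjusted p = 0.0631), and without cDC1 PGPC replicate 3 it was called (adjusted p = 0.0227). The ratio was 0.205 without cDC1 PGPC replicate 1 (adjusted p = 0.241) and 0.164 without cDC2 PGPC replicate 4 (adjusted p = 0.525), and without cDC2 PGPC replicate 5 no count was left in cDC2 (adjusted p = 0.0982). Il12a had no count in cDC2 PGPC and 193 in cDC1 PGPC, at least 3.51-fold lower (adjusted p = 0.135, not called).

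Ranked by group mean, Il12b was highest in cDC1 LPS (70.8 ± 31.5 CPM) and cDC1 LPS_PGPC (58.2 ± 33.6), which overlapped, and these were set off from cDC2 LPS_PGPC (13.1 ± 2.71) by more than the spread. Below them, cDC2 LPS (9.36 ± 4.30), cDC1 PGPC (7.46 ± 8.17), cDC2 PGPC (0.861 ± 1.22, n = 2), cDC1 Nothing (0.386 ± 0.434) and cDC2 Nothing (0.348 ± 0.393) each overlapped with the next. Ebi3 was highest in cDC1 LPS (151 ± 97.8 CPM) and cDC2 LPS (101 ± 45.7), which overlapped and stood apart from cDC2 LPS_PGPC (39.3 ± 10.9). Its remaining groups ran from cDC1 PGPC (29.2 ± 6.59) through cDC1 Nothing (26.4 ± 3.59), cDC1 LPS_PGPC (21.5 ± 12.8) and cDC2 PGPC (13.0 ± 5.98, n = 2) to cDC2 Nothing (12.7 ± 4.57), each overlapping with its neighbour.

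Receptor chains and JAK-STAT genes form the signalling side of the family, and all 11 listed genes were tested. In cDC1 LPS against cDC1 Nothing 5 were called higher and none lower, with a list median log2 fold change of 1.63 beside -0.12 over all tested genes. All tested genes were called at 17.9% in this comparison and at 8.52% in cDC2 LPS against cDC2 Nothing. Jak2, Tyk2, Stat3 and Stat4 were among the 5. Jak2, a kinase bound to IL-12 and IL-23 receptors, had 141 ± 24.5 CPM with LPS and 9.50 ± 6.08 CPM without (log2 fold change 3.80 ± 0.51, adjusted p = 1.27e-05). Tyk2, the partner kinase of Jak2, had a log2 fold change of 2.61 ± 0.58, and Stat3, which IL-23 activates, had one of 1.55 ± 0.35. Stat4, the main transducer of IL-12 signals, was also called higher (2.46 ± 0.66, adjusted p = 0.0104), but its call was lost without LPS replicate 1 or untreated replicate 2 or 3. In cDC2 LPS against cDC2 Nothing 5 of the 11 were called higher, Jak2 (3.48 ± 0.53), Stat3 (1.72 ± 0.36), Stat4 and Tyk2 among them, with Stat4 at 83.1 ± 34.6 CPM with LPS and 4.15 ± 3.02 CPM without (log2 fold change 4.82 ± 0.77, adjusted p = 0.000156). Tyk2 (1.83 ± 0.57, adjusted p = 0.0438) lost its call without LPS replicate 4, where it was 1.02, or LPS replicate 6, or any 1 of the untreated libraries.
With all 36 libraries in the fit 0 of the 11 were called in cDC1 and 1 in cDC2. Receptor chains themselves were not called by edgeR in these comparisons. Il12rb2, the signalling chain of the IL-12 receptor, had 29.9 ± 2.78 CPM in cDC1 LPS and 35.1 ± 7.98 CPM in cDC1 Nothing. Il23r, the specific chain of the IL-23 receptor, had 16.2 ± 8.13 CPM in cDC2 LPS and 0.603 ± 1.04 CPM in cDC2 Nothing without passing edgeR's test (log2 fold change 4.26 ± 1.40, adjusted p = 0.0617), and DESeq2 and limma voom called it higher, each with 6 of the 11 called. PGPC alone called 0 of the 11 in either cell type, with 3 at an unadjusted p under 0.05 in cDC1 and 0 in cDC2, and 0 by DESeq2 and limma voom. In cDC2, DESeq2 gave an adjusted p for only 5 of the 11. LPS_PGPC against LPS likewise called 0 of 11 in either cell type by edgeR, with 0 at an unadjusted p under 0.05, and 0 by DESeq2, while limma voom called 0 in cDC1 and 2 lower in cDC2. For that comparison DESeq2 gave an adjusted p for 8 of the 11 in each cell type. Over all tested genes, PGPC alone called 2.08% in cDC1 and 0.016% in cDC2. LPS_PGPC against LPS called 1.93% in cDC1 and 0.385% in cDC2, so 0 of 11 is near these shares.

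Transcription factors listed as activators moved in both directions, and 12 of the 13 listed were tested (not Cebpb). Whether each of them, Fos and Batf3 included, activates the subunit genes in these cells was not tested. In cDC1 LPS against cDC1 Nothing 3 were called higher and 3 lower, with a list median of 0.51, beside 17.9% of all tested genes called. With all 36 libraries in the fit only Nfkbiz was called. Nfkbiz, an inducible co-activator of NF-kB, had 409 ± 58.8 CPM with LPS and 14.1 ± 7.23 CPM without (log2 fold change 4.93 ± 0.65, adjusted p = 1.03e-05), and Rel was higher by 2.11 ± 0.40 on the log2 scale (adjusted p = 0.000525, but 0.392 with all 36 libraries). Irf8, which binds the Il12b promoter, was called lower, at 238 ± 78.0 CPM with LPS and 899 ± 390 CPM without (log2 fold change -1.91 ± 0.43, adjusted p = 0.00304, but 0.583 with all 36 libraries). Fos, an AP-1 subunit, was also lower (-2.14 ± 0.48, adjusted p = 0.00288, but 0.0896 with all 36 libraries), and stood at -2.85 without LPS replicate 3. The remaining called genes were Batf3, lower at -2.22 ± 0.65, and Spi1, higher at 1.42 ± 0.49, whose calls also depended on single libraries. Batf3 lost its call without LPS replicate 1 or 2 or untreated replicate 2, and Spi1 without any 1 of the untreated libraries or without LPS replicate 1, where it was 0.36. Spi1 also lost its call with limma voom and with a replicate block. The genes named here beyond 4 in a list were added after their values were seen. Irf8 and Batf3 are also among the 9 cDC1 markers, whose sum was 433 to 630 CPM in cDC1 LPS and 1092 to 1813 CPM in cDC1 Nothing. That sum contains the Irf8 and Batf3 values and rests largely on Irf8, so it does not show a change of the other markers.
In cDC2 LPS against cDC2 Nothing 4 of the 12 were called higher and 1 lower, beside 8.52% of all tested genes called, and with all 36 libraries only Irf1 was called. Nfkbiz had a log2 fold change of 4.30 ± 0.65, Rel of 2.44 ± 0.40 and Irf1, an interferon-induced activator of Il12a and Il12b, of 2.51 ± 0.45, while Fos was lower, at -1.97 ± 0.46. Without untreated replicate 5 Nfkbiz was 5.41. Rela, the fourth called higher (1.70 ± 0.45, adjusted p = 0.0152), lost its call without LPS replicate 5 or 6 or untreated replicate 4 or 6. Between untreated cell types 1 was called higher in cDC2 and 4 lower, beside 10.2% of all tested genes called, and with all 36 libraries 1 was called in each direction, Fos higher and Batf3 lower. Irf8 had 79.8 ± 22.4 CPM in cDC2 Nothing and 899 ± 390 CPM in cDC1 Nothing (log2 fold change -3.53 ± 0.47, adjusted p = 5.53e-05), Batf3 had a log2 fold change of -5.56 ± 0.92 (-6.65 without untreated cDC2 replicate 4 and -4.55 without replicate 5) and Irf1 of -2.02 ± 0.44, and Fos was higher in cDC2 at 3.16 ± 0.48. Nfkb1 was also lower in cDC2 (-2.11 ± 0.52), a call lost without untreated cDC2 replicate 4.
LPS_PGPC against LPS called 0 of the 12 by edgeR in either cell type, with 7 at an unadjusted p under 0.05 in cDC1 and 1 in cDC2. All tested genes were called at 1.93% in cDC1 and 0.385% in cDC2 there, and at 2.08% and 0.016% with PGPC alone. PGPC alone also called 0 of the 12, with 3 at an unadjusted p under 0.05 in cDC1 and 2 in cDC2, and DESeq2 called 1 lower in cDC1. For LPS_PGPC against LPS, DESeq2 called 3 higher in cDC1 and 0 in cDC2, and limma voom called 3 higher and 2 lower in cDC1 and 1 in each direction in cDC2. Batf3 had 30.6 ± 12.5 CPM in cDC1 LPS_PGPC and 7.29 ± 0.88 CPM in cDC1 LPS (log2 fold change 2.06 ± 0.65, adjusted p = 0.099).

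Repressors and feedback regulators were all tested, 8 of 8. All tested genes were called at 17.9% in cDC1 LPS against cDC1 Nothing and at 8.52% in cDC2 LPS against cDC2 Nothing. In cDC1 LPS 5 were called higher and none lower against cDC1 Nothing, with a list median log2 fold change of 2.88, beside -0.12 over all tested genes. Socs3 (4.04 ± 0.74), which dampens STAT3 signalling, Tnfaip3 (4.66 ± 0.95), a brake on NF-kB, Socs1 (2.71 ± 0.60) and Zc3h12a (3.05 ± 0.72), an RNase that degrades cytokine messages, were among them, and the fifth, Il10, had 5.39 ± 0.74 CPM with LPS and no count without. Without untreated replicate 1 the values were 6.06 for Tnfaip3, 3.86 for Socs1 and 3.95 for Zc3h12a, and without untreated replicate 2 they were 3.98 for Tnfaip3 and 2.38 for Zc3h12a. In cDC2 LPS 4 were called higher, Socs1 (4.75 ± 0.68), Socs3 (4.43 ± 0.78), Tnfaip3 (3.88 ± 0.92) and Zc3h12a (2.87 ± 0.72), the third at 2.79 and lost without LPS replicate 4, and the last without untreated replicate 4 or 5. With all 36 libraries in the fit 2 of the 8 were called in cDC1, Tnfaip3 and Il10, and 1 in cDC2, Socs1. LPS_PGPC against LPS called 0 of 8 by edgeR in either cell type, beside 1.93% of all tested genes in cDC1 and 0.385% in cDC2. At an unadjusted p under 0.05 were 3 in cDC1 and 4 in cDC2. The list medians were -1.30 in cDC1 and -0.98 in cDC2, against 0.07 and 0.01 over all tested genes. There limma voom called 5 lower and 1 higher in cDC1 and 3 lower and 1 higher in cDC2, while DESeq2, with an adjusted p for 7 of the 8 in each cell type, called 1 higher in cDC1 and 0 in cDC2. In cDC2 PGPC against cDC2 Nothing edgeR called 0 of the 37 tested genes of the 4 lists, with 3 at an unadjusted p under 0.05 and 0 called by DESeq2 or limma voom. There DESeq2 gave an adjusted p for only 5 receptor and JAK-STAT genes, 10 activators, 4 repressors and feedback regulators and 2 companion cytokines. Over all tested genes the shares called with PGPC alone were 0.016% in cDC2 and 2.08% in cDC1. In cDC1 PGPC, Socs1 was the 1 of 8 called, lower at 2.98 ± 2.40 CPM than the 18.1 ± 18.5 CPM of cDC1 Nothing (log2 fold change -2.31 ± 0.61, adjusted p = 0.0429), a call lost without PGPC replicate 2 or 3 or untreated replicate 1, where it was -1.16. This Socs1 call was also lost with limma voom, with a replicate block and with all 36 libraries in the fit.

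**Figure D4:**
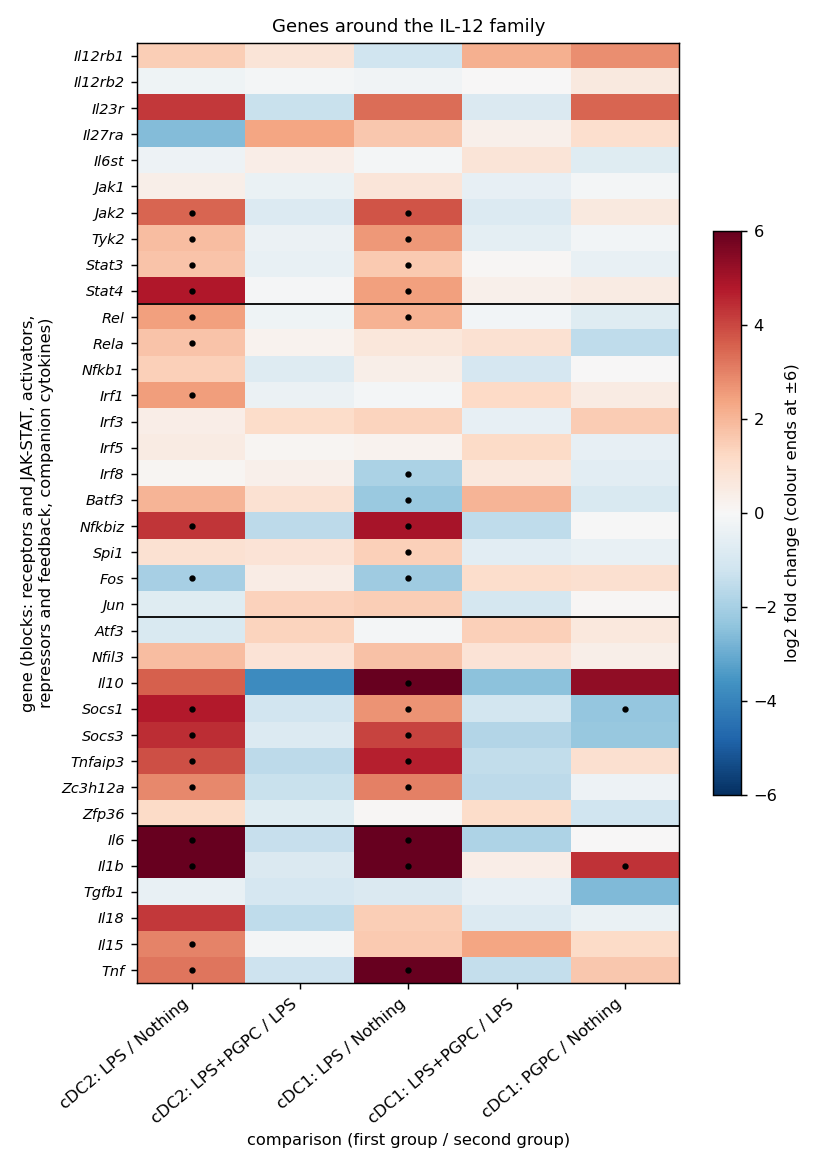
Log2 fold change (colour, ends at ±6) of 36 tested genes around the IL-12 family in 5 comparisons (first group over second group), with a black dot where a gene was called at an adjusted p below 0.05. The columns of LPS over Nothing hold nearly all dots, and the columns of LPS+PGPC over LPS hold none. Of all tested genes, 17.9% in cDC1 and 8.52% in cDC2 were called for LPS over Nothing. For LPS+PGPC over LPS 1.93% were called in cDC1 and 0.385% in cDC2, so a lack of dots is near the share over all genes.

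Cytokines made beside the family were tested for 6 of 8 listed genes (not Ifnb1 and Ifng). In cDC1 LPS 3 were called higher than in cDC1 Nothing, with a list median log2 fold change of 3.86. All tested genes were called at 17.9% there and at 8.52% in cDC2 LPS against cDC2 Nothing. Il1b, the inflammasome-processed cytokine, had 233 ± 42.3 CPM with LPS and 0.529 ± 0.370 CPM without (log2 fold change 9.11 ± 1.02, adjusted p = 2.12e-06), Tnf had 181 ± 59.6 CPM with LPS and 2.40 ± 1.47 CPM without (6.15 ± 0.59, adjusted p = 3.3e-07), and Il6 had 39.96 ± 11.4 CPM with LPS and no count without. Without untreated replicate 3 Tnf was 6.92 and Il1b 9.79, and without untreated replicate 2 Il1b was 8.42. In cDC2 LPS 4 were called higher (3 with all 36 libraries, without Il6), namely Il1b (7.03 ± 0.90), Tnf (3.22 ± 0.52), Il15 (2.98 ± 0.71), which lost its call without untreated replicate 4, and Il6, at 52.4 ± 23.4 CPM with LPS and 1 count over the untreated libraries. Without untreated replicate 5 Il1b was 7.61 and Il15 4.34. In cDC1 PGPC, Il1b was the 1 of 6 called, beside 2.08% of all tested genes. It had 8.002 ± 9.92 CPM with PGPC and 0.529 ± 0.370 CPM without, with overlapping ranges (4.33 ± 0.95, adjusted p = 0.0171), and the call was lost without PGPC replicate 1 (2.79) or untreated replicate 2 (3.65), while without untreated replicate 3 it was 5.02. This Il1b call was also lost with limma voom and with all 36 libraries in the fit. LPS_PGPC against LPS called 0 of 6 by edgeR in either cell type, beside 1.93% of all tested genes in cDC1 and 0.385% in cDC2. At an unadjusted p under 0.05 were 3 in cDC1 and 2 in cDC2. Of the 3 in cDC1, Il15, a cytokine that sustains natural killer cells, had 18.2 ± 7.97 CPM in cDC1 LPS_PGPC and 3.46 ± 0.97 CPM in cDC1 LPS (2.35 ± 0.64, adjusted p = 0.0555). Tnf had 66.5 ± 34.1 CPM in cDC1 LPS_PGPC and 181 ± 59.6 CPM in cDC1 LPS, and Il6 had 11.1 ± 7.85 CPM in cDC1 LPS_PGPC and 39.96 ± 11.4 CPM in cDC1 LPS. There DESeq2 called 1 higher and 1 lower in cDC1 and limma voom 1 higher and 2 lower, and in cDC2 DESeq2 called 0 and limma voom 3 lower.

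Over the 23 libraries, the genes whose log2 CPM followed Il12b most closely were Cd83 (Pearson r = 0.917), a surface marker of mature dendritic cells, Birc3 (0.903), Apol7c (0.902), Gadd45b (0.895) and Il4i1 (0.887). For Ebi3 they were Itgal (0.845), an integrin chain, Gpr18 (0.832), Serp1 (0.82), Lcp2 (0.815) and Cd80 (0.795), a T cell co-stimulator. For Il12a the closest included Apcdd1 (0.768), Sla (0.731), Cd82 (0.727) and P2ry13 (0.724). Among the members, r was 0.538 between Il12b and Ebi3, 0.489 between Il12a and Ebi3 and 0.0441 between Il12a and Il12b. These are descriptions over 23 libraries that share treatments and scaling.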

How the data were processed

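Libraries were made by Smart-Seq2 from total RNA and read from both ends on a NextSeq instrument, per the labels' protocols. The authors deposited 1 table of expected counts per gene symbol, estimated with RSEM on GRCm38, per the submitters' processing notes, which also name bcl2fastq 2.2. The sources used here do not give the RSEM version, the aligner or the annotation. Without molecular identifiers in the reads, each interval or floor covers counting error only.

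Expected counts of 23 libraries in 8 groups were rounded to whole numbers. Among the nonzero values, 21% were not whole within 1e-06. Genes passing filterByExpr (minimum count 10, minimum total 15) were fitted together in edgeR 4.0.16 (R 4.3.3) with TMM scaling and 1 mean per group, and 17 contrasts were tested by quasi-likelihood with Benjamini-Hochberg adjustment over 12463 genes. The left-out libraries were 12 with alum, at 467 to 2610 detected genes, and 1 cDC2 PGPC library. The floor for a group with no count was 3 counts over its summed scaled total. Alternatives used DESeq2 1.42.0, limma 3.58.1 (voom with quality weights), no filter, other scaling, all 36 libraries, a replicate block, and each library left out. The rows of ribosomal RNA were left out in an alternative chosen after seeing the data. Mitochondrial genes were also left out, while Rn45s, meant to be left out with them, has no row. On counts simulated for cDC1 LPS against cDC1 Nothing (11627 genes), 63.3% of genes changed by 3 on the log2 scale and 13% of those changed by 2 were recovered.

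The members and gene lists were chosen with earlier results of these data known, and in each list and comparison up to 4 called genes with the smallest adjusted p were named. Group levels are means ± SD over libraries, which the series text calls biological replicates without naming animals or cultures. The p-values measure the spread between these libraries. Likeness to a member was Pearson's r of log2 CPM over 23 libraries. Values of some genes are not reported here.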

Additional observations from a re-analysis of the deposited data

Results flagged for a closer look

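Outside the compared libraries, Ebi3 was the member seen with alum. In the cDC2 LPS_Alum library of replicate 5 it reached 2010 CPM of the unscaled library total (1111 counts), against a highest value of 16.7 in untreated cDC2. In the cDC1 LPS_Alum library of replicate 1 it reached 152 CPM (282 counts), against a highest value of 25.6 in untreated cDC1. The 3 cDC1 LPS libraries without alum held 90.7 to 264 CPM, and the 3 cDC2 LPS libraries 60.4 to 150.3 CPM, both with TMM scaling, which the alum values lack. Another cDC1 LPS_Alum library, replicate 2, held 5.59 CPM, and the other 9 alum libraries held none. The 12 alum libraries detected 467 to 2610 genes, against 9687 to 15608 in the 23 libraries compared, and the other 4 members had no count in them. These Ebi3 values were not compared with a test.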

How the results depend on the processing

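Depth limits the smaller members most. Il27 and Il23a did not pass the filter on low counts, and with no filter neither was called (for LPS against Nothing, Il27 had adjusted p-values of 0.225 in cDC1 and 0.723 in cDC2, and Il23a 0.695 in cDC1), the untreated Il12b level rests on 3 counts in cDC1 and 4 in cDC2, and cDC2 PGPC holds 2 libraries. Between 13 and 21 alternatives were run per comparison, and Il12b kept its call and direction in all 15 for cDC1 LPS and for cDC1 LPS_PGPC against cDC1 Nothing. With all 36 libraries the number of members called was 1 in place of 2 for LPS against Nothing in each cell type, and 0 in place of 1 for cDC1 LPS_PGPC against LPS, cDC2 LPS_PGPC against PGPC and cDC2 against cDC1 under LPS. There Ebi3 had adjusted p-values of 0.412 (cDC1 LPS against Nothing), 0.525 (cDC2 LPS against Nothing) and 0.754 (cDC1 LPS_PGPC against LPS). With limma voom the number was 0 in place of 1 for cDC1 PGPC against Nothing, 3 in place of 2 for cDC2 LPS against Nothing, 2 in place of 1 for cDC1 LPS_PGPC against PGPC, cDC2 against cDC1 under LPS and cDC2 LPS_PGPC against Nothing, 2 in place of 0 for cDC2 LPS_PGPC against LPS, and 1 in place of 0 for cDC2 against cDC1 under LPS_PGPC and for the cell type difference in the LPS change. DESeq2 gave 2 in place of 1 for cDC1 LPS_PGPC against PGPC, and DESeq2 and the fit with no filter each gave 1 in place of 0 for cDC2 against cDC1 under PGPC and under LPS_PGPC. The cause was not tested.

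Leaving out 1 library at a time gave 0 to 1 members called for cDC1 PGPC against Nothing, cDC1 LPS_PGPC against LPS, cDC2 LPS_PGPC against Nothing and against PGPC, and cDC2 against cDC1 under LPS and under PGPC, and 1 to 2 for cDC1 LPS_PGPC against Nothing and against PGPC and for cDC2 LPS against Nothing. Some uncalled values changed sign. With no filter Il12a of cDC2 over cDC1 under LPS_PGPC was -0.0743, and Il12b of cDC2 PGPC over Nothing was 0.00742 with all 36 libraries and 0.0941 with limma voom. With a pseudocount of 1 the Ebi3 to Il12a ratio of cDC2 LPS over Nothing was 0.28. With 1 library left out, log2 fold changes of Ebi3 spanned -0.12 to 0.24 for cDC1 PGPC against Nothing, -0.72 to 0.0945 for cDC1 LPS_PGPC against Nothing, -0.85 to 0.0108 for cDC1 LPS_PGPC against PGPC, -0.68 to 0.29 for cDC2 PGPC against Nothing, -1.01 to 0.0923 for cDC2 against cDC1 under LPS, and -0.0822 to 1.02 for the cell type difference in the LPS change. Those of Il12b spanned -0.77 to 0.14 for cDC1 LPS_PGPC against LPS and -4.65 to 1.73 for cDC2 PGPC against Nothing. Those of Il12a spanned -3.50 to 3.52 for cDC2 against cDC1 under LPS_PGPC and -6.03 to 0.995 for the cell type difference of LPS_PGPC against LPS. Log2 ratios spanned -0.685 to 0.719 for Il12b over Il12a and -1.99 to 0.322 for Ebi3 over Il12a, both for cDC2 LPS against Nothing, and -1.44 to 0.352 for Ebi3 over Il12a in cDC1 LPS_PGPC against LPS.

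Whether the replicate numbers pair the libraries was not tested against differently numbered libraries. Same-numbered correlations ran from -0.188 to 0.52, and in no comparison were all over 0.1. All were positive for LPS_PGPC against LPS, at 0.0909 to 0.52 in cDC2 and 0.0304 to 0.176 in cDC1. The same held for cDC1 LPS_PGPC against PGPC (0.059 to 0.124) and cDC2 PGPC against Nothing (0.00428 to 0.0656). All were negative for cDC2 LPS_PGPC against PGPC (-0.188 to -0.0711), and the other comparisons held both signs. A replicate block left the number of members called at 2 for cDC1 LPS against Nothing and changed it in no comparison where it was run.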
